A study of Mus musculus with 8 samples.

Results

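The genes described here encode the scaffold proteins of the postsynaptic density and the adhesion proteins that hold pre- and postsynaptic membranes together. The set has 33 genes, defined by a list of names. Probes were assigned to them through the transcript accession of each probe, and 59 of the 39429 non-control probes on the array matched 32 of the 33 genes, of 19751 genes with a symbol. No matched probe was found for Lrrtm4. In 14 of the 32 genes there was 1 probe, and in the other 18 there were 2 or more.

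RNA came from the whole hippocampus of untreated wild type C57BL/6J mice. The young group (3M, 3 months old) and the aged group (29M, 29 months old, which is near the end of the laboratory lifespan of this strain) had 4 samples each, and every sample was labelled with Cy3 and hybridized to 1 array. The comparison of 29M with 3M asks which of these synaptic genes differ in transcript level between the young and the old hippocampus. The labels do not say whether a sample is 1 animal or a pool, so the p-values measure the spread between these samples. Because the tissue is a mixture of cells, fewer cells of a type and less RNA per cell cannot be told apart. Markers of neurons (10 probes of 7 genes) and of hippocampal excitatory neurons (8 probes of 8 genes) were above background on every array.

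At an excitatory synapse, glutamate receptors sit in a protein lattice under the postsynaptic membrane. Dlg proteins bind the receptors, Dlgap proteins link Dlg to Shank, and Shank binds Homer, which reaches the metabotropic receptors and intracellular calcium stores. Calmodulin-dependent kinase II is abundant in the same lattice and is central to long-term potentiation. Across the cleft, presynaptic neurexins bind postsynaptic neuroligins and Lrrtm proteins. Many of these genes give rise to several transcripts, so that probes of 1 gene need not report the same RNA.

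Values are intensities after variance stabilizing normalization, in generalized log2 units. This scale compresses the changes of dim probes, and levels of different probes cannot be compared. All changes are 29M minus 3M, and a change was called at an adjusted p below 0.1 together with an absolute log2 change of at least 0.5 (1.414-fold), in the fit by limma over 39408 probes with Benjamini-Hochberg adjustment. Between 76.2 and 85.0% of the spots lay above background on each array, and all 59 member probes did so on all 8. The arrays were spread over 3 slides. Slide 1 held replicate 1 of 3M with replicates 3 and 4 of 29M, slide 2 held replicate 2 of each age, and slide 3 held replicates 3 and 4 of 3M with replicate 1 of 29M. The scanner software had graded 1 array for evaluation, replicate 1 of 3M, and this array had the fewest spots above background. The slide 1 arrays had 76.2, 80.6 and 78.9% of spots above background, against 81.7 to 85.0% on slides 2 and 3. Their median local background was 26 to 27, against 32 to 36 on slides 2 and 3.

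Most of the scaffold and adhesion genes differed little between the ages, and the single called probe belonged to Nrxn2, which was lower at 29M by both of its probes. Of the 59 probes 1 was called lower and 0 were called higher. This is 1.69% of the probes, where 2.06% of all tested probes were called, 0.815% as lower and 1.25% as higher, and 2.52% of those above background on all 4 arrays of at least 1 age. At an unadjusted p below 0.05 there were 16 probes of 13 genes, 11 lower and 5 higher at 29M, or 27.1% of the probes against 16.9% of all tested probes. Values of the age groups did not overlap for 9 of the 59 probes (15.3%, against 11.1% of all and 12.7% of those above background), 6 of them lower (5.54% of all probes were) and 3 higher (5.52% of all). The signs leaned to one side, since 40 of 59 probes (67.8%) had a negative change, against 49.2% of all tested probes. The median change was -0.11 over the member probes and 0.00 over all tested probes. In size the changes were close to those of other genes, with a median absolute change of 0.141 against 0.125.

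A limit on the size of any change can be given for most probes. For 33 of the 59 probes the 95% confidence interval of the change lay wholly between -0.5 and 0.5, so that a change as large as the threshold was outside the interval. By gene, all probes were negative for 19 members and positive for 7, and the remaining 6 had probes of both signs. The sign depended on the scaling for 9 of the 59 probes, all with an absolute change of 0.132 or less, and 39 to 42 probes were negative under the scalings tried. Only 4 probes reached an absolute change of 0.5. These were the second probe of Nrxn2 and the probes of Dlg4, Grip1 and Lrrtm2.

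**Figure D1:**
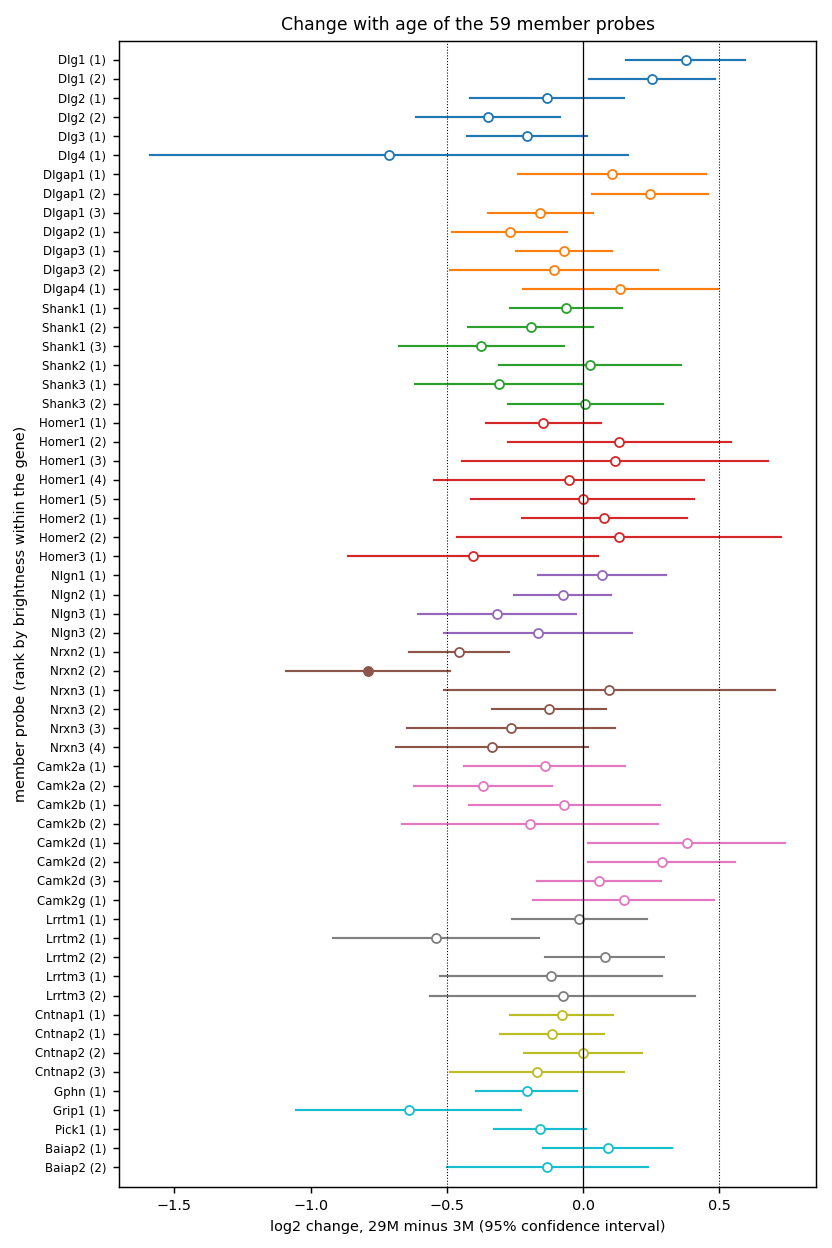
Log2 change (29M minus 3M) of the 59 member probes with the 95% confidence interval of each, grouped by protein family, with the 0.5 threshold drawn as lines. Most intervals cross 0, and the second probe of Nrxn2, at -0.79, is the called one.

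Among the adhesion genes, the called probe belonged to Nrxn2. This gene encodes a presynaptic adhesion protein whose long and short forms start from separate promoters, and it was measured by 2 probes. For the probe that was called (A_55_P1954067) the values at 3M were 14.18, 14.55, 14.28 and 14.49, and those at 29M were 13.55, 13.46, 13.92 and 13.40. Every 29M sample lay below every 3M sample. The change was -0.79 with an SE of 0.13 and a 95% confidence interval from -1.09 to -0.49 (limma, adjusted p = 0.0257), a level 1.73-fold higher at 3M. The brighter probe (A_55_P1954061) read 15.65, 15.83, 15.89 and 15.90 at 3M and 15.32, 15.35, 15.37 and 15.40 at 29M, again with no overlap. Its change was -0.45 (SE 0.08, limma adjusted p = 0.0321), and it stayed under the size threshold while its adjusted p was below 0.1. Both Nrxn2 probes were lower at 29M on each of the 3 slides, by -0.52, -1.09 and -0.83 for the called probe on slides 1, 2 and 3. Leaving out slide 1 keeps replicates 2, 3 and 4 of 3M but only replicates 1 and 2 of 29M. In that smaller fit the changes were -0.93 and -0.53, and both probes were called (limma, adjusted p = 0.0258 and 0.0490).

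**Figure D2:**
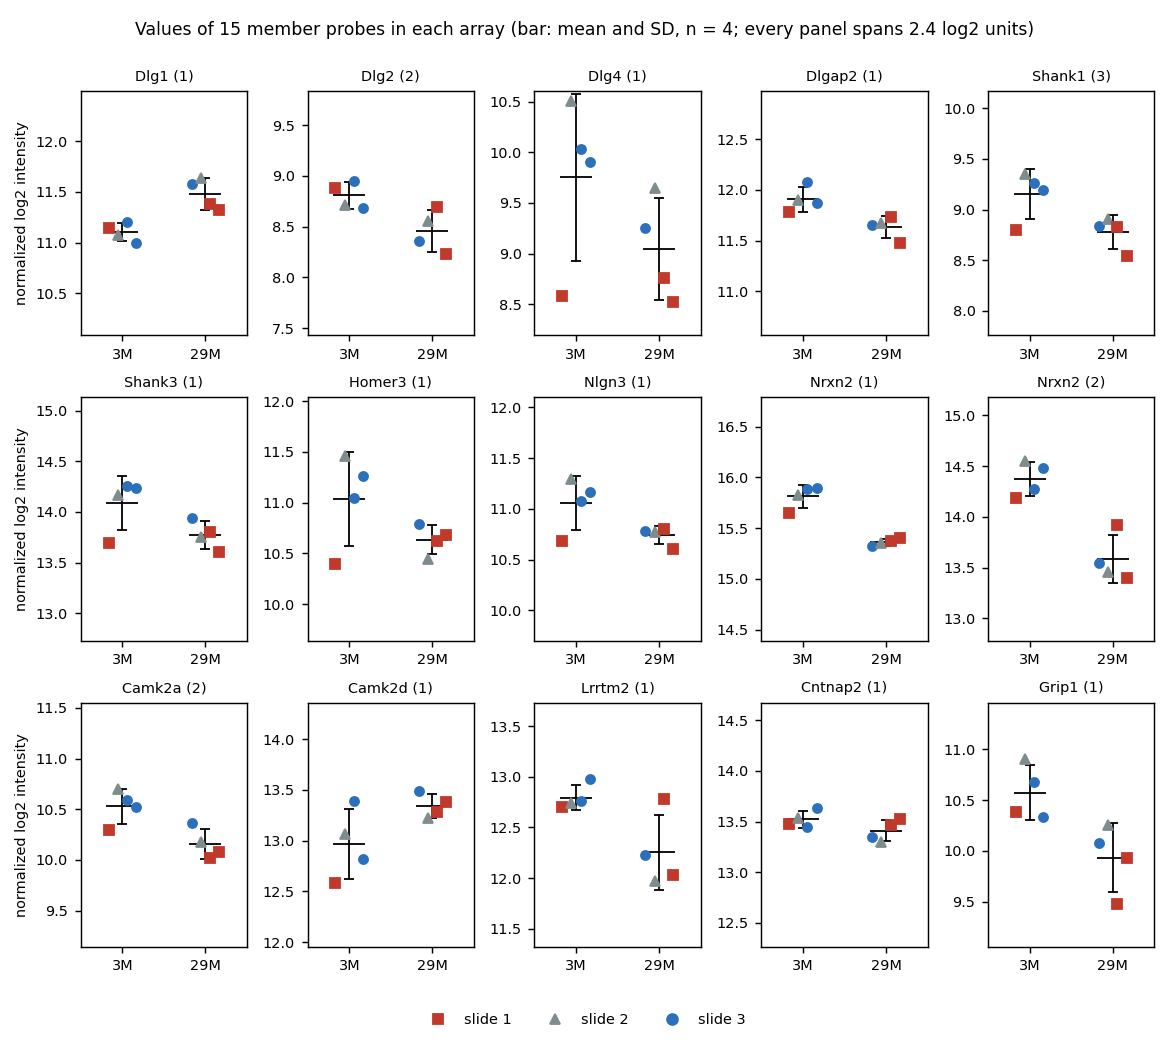
Normalized log2 intensity of 15 member probes in each array, with the mean and SD of each age (n = 4) and the slide as symbol. Every panel spans 2.4 log2 units, and the number behind the gene is the order of its probes by brightness. The groups are separate for both Nrxn2 probes, Dlg1, Dlgap2 and Grip1, whereas the 3M value on slide 1 falls among or below the 29M values for Dlg4, Homer3, Nlgn3 and Shank3.

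Nrxn3, which encodes another neurexin, was measured by 4 probes with changes from -0.33 to 0.10, none of them at an unadjusted p below 0.05. Its brightest probe had a low value in replicate 1 of 3M, at 13.80 beside 14.89, 15.06 and 15.02 in the other 3 samples, and its 29M values of 14.86, 14.85, 14.40 and 15.05 lay in between or close to these. The neurexin family as a whole, with 6 probes of 2 genes, had a median change of -0.30, with 5 of 6 probes negative.

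Of the neuroligins, the postsynaptic partners of neurexins, none was called. Nlgn3, found at both excitatory and inhibitory synapses, read 10.69, 11.29, 11.08 and 11.17 at 3M and 10.78, 10.78, 10.80 and 10.61 at 29M with its brighter probe. Replicate 1 of 3M lay among the 29M values and the other 3 samples of 3M lay above all of them. The change was -0.32 (SE 0.13, limma adjusted p = 0.256), and the second probe gave -0.16. Nlgn1, which acts mainly at excitatory synapses, had a change of 0.07, and Nlgn2, the neuroligin of inhibitory synapses, one of -0.08, and both signs turned with the processed signal scaled by the 75th percentile (-0.14 and 0.01). The 95% confidence intervals ran from -0.17 to 0.30 for Nlgn1 and from -0.25 to 0.10 for Nlgn2, so that for these 2 genes a change of 0.5 in either direction lay outside the interval of the main normalization.

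The Lrrtm proteins are postsynaptic leucine-rich repeat proteins that bind neurexins at excitatory synapses. The brighter probe of Lrrtm2 read 12.70, 12.74, 12.76 and 12.98 at 3M and 12.23, 11.97, 12.78 and 12.03 at 29M. Replicates 1, 2 and 4 of 29M lay below all 3M samples, and replicate 3 of 29M lay within their range. The change of -0.54 (SE 0.17) was not called (limma, adjusted p = 0.157). Without 29M replicate 3 it was -0.72 and was called (limma, adjusted p = 0.0287). Leaving out slide 1 also removes that replicate, so the call there is not a separate result (-0.72, limma adjusted p = 0.0639). The other probe of Lrrtm2 had a change of 0.08. Lrrtm1 showed a change of -0.01 with a 95% confidence interval from -0.26 to 0.23 (0.02 with the 75th percentile scaling), and both probes of Lrrtm3 were within -0.12 and -0.08, with a wide spread at 3M (SD 0.41 for the brighter one, n = 4).

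Genes with several probes allow a test of whether the probes changed by the same amount, in which a shift common to all probes of an array cancels. The brightest probe of each gene was set against each of its other probes, giving 27 pairs in 18 member genes. With limma 0 of the 27 pairs were called, where 1.86% of 6295 pairs in all genes were, and 2 had an unadjusted p below 0.05 (15.3% of all pairs did). These 2 pairs belonged to Nrxn2 and Lrrtm2. In Nrxn2 the brighter probe minus the called one gave a difference of 0.34 (SE 0.14, limma adjusted p = 0.281). In Lrrtm2 the difference was -0.62 (SE 0.20, limma adjusted p = 0.194), and it was called without 29M replicate 3 (-0.85, adjusted p = 0.0281). It was also called without slide 1, which holds that replicate (-0.86, limma adjusted p = 0.0721). The probe sequences were not used here, so the exons behind each probe are not given.

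**Figure D3:**
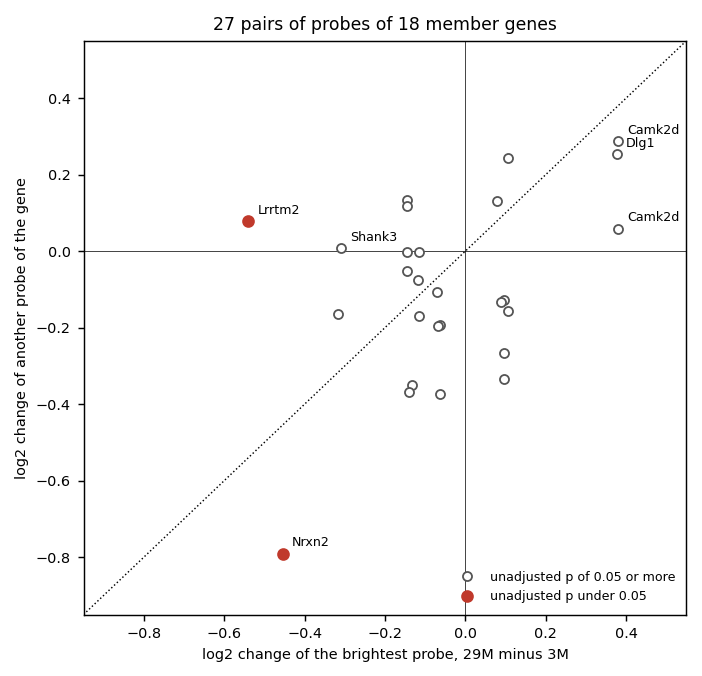
Change of the brightest probe of a gene (horizontal axis) against the change of each other probe of that gene (vertical axis), both 29M minus 3M in log2 units, for 27 pairs in 18 member genes. Points on the diagonal changed equally. Nrxn2 lies at the lower left with both probes negative, and Lrrtm2 is farthest from the diagonal on the other side, at -0.54 and 0.08.

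Cntnap1 and Cntnap2 are contactin-associated proteins of the axon, the former at the paranodal junction beside the node of Ranvier and the latter at the juxtaparanode, where it clusters potassium channels. The brightest probe of Cntnap2 read 13.47, 13.53, 13.45 and 13.63 at 3M and 13.35, 13.30, 13.46 and 13.53 at 29M, with overlap between the ages. Its change was -0.11 (SE 0.09, limma adjusted p = 0.539) and -0.22 without slide 1 (adjusted p = 0.289), and that of Cntnap1 was -0.08. All 4 probes of the 2 genes had a negative sign, and none passed an unadjusted p of 0.05.

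Among the scaffolds, the Dlg genes had changes of both signs. Dlg proteins are membrane-associated guanylate kinases that hold glutamate receptors through their PDZ domains. The brighter probe of Dlg1, whose protein also occurs outside synapses, read 11.14, 11.08, 11.20 and 10.99 at 3M and 11.58, 11.64, 11.38 and 11.32 at 29M. All 29M samples lay above all 3M samples. The change of 0.38 (SE 0.10) had an adjusted p just under 0.1 (limma, 0.0997) and did not reach 0.5. The second Dlg1 probe also separated the ages, with a change of 0.25 (limma, adjusted p = 0.257). Without slide 1 the brighter probe was called higher at 29M, with a change of 0.52 (limma, adjusted p = 0.0767).

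The other Dlg genes had negative signs. The second probe of Dlg2 read 8.88, 8.71, 8.95 and 8.69 at 3M and 8.36, 8.56, 8.69 and 8.23 at 29M, with replicate 3 of 29M at the lower edge of the 3M range. Its change was -0.35 (SE 0.12, limma adjusted p = 0.182), and the brighter probe gave -0.13. Dlg3 changed by -0.21 (95% confidence interval from -0.43 to 0.01). Dlg4 encodes the most studied scaffold of the excitatory postsynaptic density, and it is named here after its values were seen, because of its spread. It read 8.58, 10.51, 10.03 and 9.90 at 3M and 9.25, 9.65, 8.76 and 8.52 at 29M. Replicate 1 of 3M was among the lowest values and the other 3M samples were above every 29M sample. With all samples the change was -0.71 with an SE of 0.39 (limma, adjusted p = 0.397), and without 3M replicate 1 it was -1.10 and called (adjusted p = 0.0602). Without 3M replicate 2 it was -0.46 (limma, adjusted p = 0.645) and without slide 1 it was -0.70 (adjusted p = 0.165), neither of them called. Within slide 1 the Dlg4 change was 0.06, against -0.86 on slide 2 and -0.71 on slide 3.

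The Dlgap genes, whose proteins bind the guanylate kinase domain of Dlg, differed by less. Dlgap2 read 11.78, 11.90, 12.07 and 11.87 at 3M and 11.66, 11.68, 11.73 and 11.48 at 29M. The ages did not overlap, and the change was -0.27 (SE 0.09, limma adjusted p = 0.193). Dlgap1 had probes of both signs, at 0.11, 0.24 and -0.16. Both probes of Dlgap3 were slightly negative, at -0.07 and -0.11, and Dlgap4 was at 0.14. None of the 7 probes was called.

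Shank proteins are large scaffolds that join Dlgap to Homer and to the actin cytoskeleton. The brighter probe of Shank3, a gene linked to a neurodevelopmental syndrome, read 13.69, 14.16, 14.25 and 14.23 at 3M and 13.94, 13.75, 13.80 and 13.60 at 29M. Replicates 2, 3 and 4 of 3M were above all 29M samples and replicate 1 was not. The change was -0.31 (SE 0.14, limma adjusted p = 0.291), while the dim second probe gave 0.01, or -0.01 with quantile normalization. For Shank1 the third probe read 8.80, 9.35, 9.26 and 9.19 at 3M and 8.84, 8.91, 8.82 and 8.54 at 29M, a change of -0.37 (SE 0.14, limma adjusted p = 0.207). Here too replicate 1 of 3M lay within the 29M range. The other 2 Shank1 probes gave -0.06 and -0.19, and the single probe of Shank2 gave 0.03, with the sign turned under scaling by the 75th percentile.

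Homer proteins form multimers that tie Shank to metabotropic glutamate receptors. Homer3 read 10.39, 11.46, 11.04 and 11.26 at 3M and 10.79, 10.45, 10.62 and 10.68 at 29M. Replicate 1 of 3M was the lowest of the 8 values and the other 3 were the highest. The change was -0.40 (SE 0.20, limma adjusted p = 0.357), and without 3M replicate 1 it was -0.62 and called (adjusted p = 0.0343). Without 3M replicate 2 it was -0.26 (limma, adjusted p = 0.600) and without slide 1 it was -0.63 (adjusted p = 0.124), neither of them called, and within slide 1 it was 0.26. The 5 probes of Homer1, which has a short activity-induced form, lay between -0.15 and 0.13, and the 2 probes of Homer2 gave 0.08 and 0.13, or -0.03 and -0.02 with the processed signal scaled by the 75th percentile. No Homer probe had an unadjusted p below 0.05, against 16.9% of all probes.

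The 4 genes of calmodulin-dependent kinase II differed in the sign of their changes. Camk2d, an isoform that many tissues express, had its brightest probe at 12.58, 13.07, 13.39 and 12.82 at 3M and at 13.49, 13.22, 13.28 and 13.38 at 29M. Replicate 3 of 3M overlapped the 29M samples and the other 3 were lower. The change was 0.38 (SE 0.16, limma adjusted p = 0.272), and 0.25 without 3M replicate 1 (adjusted p = 0.346). Its second probe separated the ages with a change of 0.29, and the third gave 0.06. Camk2a encodes the main forebrain isoform. Its second probe read 10.29, 10.70, 10.59 and 10.53 at 3M and 10.36, 10.18, 10.02 and 10.08 at 29M. Replicate 1 of 3M lay just below replicate 1 of 29M and the other samples of the ages did not cross, and the change was -0.37 (SE 0.11, limma adjusted p = 0.149). The brighter Camk2a probe gave -0.14. Camk2b, the other neuronal isoform, gave -0.07 and -0.20, and Camk2g gave 0.15.

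The remaining 4 members bind receptors or the membrane directly. Grip1, a protein with several PDZ domains that anchors AMPA receptors, read 10.38, 10.90, 10.68 and 10.33 at 3M and 10.08, 10.26, 9.47 and 9.93 at 29M. All 29M samples lay below all 3M samples, with the nearest ones at 10.33 and 10.26. The change of -0.64 (SE 0.18) exceeded the size threshold and missed the adjusted one (limma, adjusted p = 0.129). It was called when 3M replicate 1 was left out (-0.70, limma adjusted p = 0.0935), and it fell under the size threshold without slide 1 (-0.47, adjusted p = 0.231) or without 29M replicate 3 (-0.49, adjusted p = 0.167). Gphn encodes gephyrin, the scaffold of inhibitory synapses, and Pick1 encodes a PDZ protein of AMPA receptor trafficking. The ages did not overlap for either gene, with small changes of -0.21 (limma, adjusted p = 0.246) for Gphn and -0.16 (limma, adjusted p = 0.328) for Pick1. Baiap2, which bends membranes and binds actin, had probes at 0.09 (-0.01 with the 75th percentile scaling) and -0.13.

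Promoter sequences of 24 of the members, with 43 transcription starts, were listed by RefSeq on build GRCm38.p6, from 250 bases before to 50 bases after the start. They are shown for 3 genes that had a single listed start and whose values in every array are given above, 1 with a positive change (Camk2d) and 2 with a negative one (Homer3 and Shank3), so that their composition can be set side by side. Capitals mark GGGCGG, the core of the GC box, and GCGTGGGCG, the core of sites of Egr factors, read on either strand, so CCGCCC and CGCCCACGC also count. The 2 motifs may share bases.
Camk2d (chr3:126596701-126597000, + strand): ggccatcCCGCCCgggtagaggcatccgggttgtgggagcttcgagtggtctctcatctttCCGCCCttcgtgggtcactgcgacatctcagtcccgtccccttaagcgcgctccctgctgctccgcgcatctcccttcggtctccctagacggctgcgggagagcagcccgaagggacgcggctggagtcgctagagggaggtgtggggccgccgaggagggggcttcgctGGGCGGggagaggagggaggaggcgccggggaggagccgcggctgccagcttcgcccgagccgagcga
Homer3 (chr8:70282749-70283048, + strand): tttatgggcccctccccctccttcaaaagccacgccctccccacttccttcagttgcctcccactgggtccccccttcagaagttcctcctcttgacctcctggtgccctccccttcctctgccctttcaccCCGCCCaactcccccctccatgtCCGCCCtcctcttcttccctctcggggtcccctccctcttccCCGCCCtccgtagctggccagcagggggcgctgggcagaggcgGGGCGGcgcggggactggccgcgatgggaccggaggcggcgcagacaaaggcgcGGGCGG
Shank3 (chr15:89499358-89499657, + strand): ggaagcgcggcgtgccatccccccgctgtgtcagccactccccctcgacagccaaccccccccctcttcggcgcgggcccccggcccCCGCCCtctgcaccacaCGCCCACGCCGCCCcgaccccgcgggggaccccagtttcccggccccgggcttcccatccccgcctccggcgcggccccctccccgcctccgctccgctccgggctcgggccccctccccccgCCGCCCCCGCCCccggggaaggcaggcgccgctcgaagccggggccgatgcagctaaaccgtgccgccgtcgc
All 3 held the GC box core, with 3 matches in Camk2d, 5 in Homer3 and 4 in Shank3, and Shank3 held the 1 Egr match among the members. GC content was 70.3%, 69.7% and 81.0%, against a median of 55.7% over the member starts and 52.7% over all 32851 starts. GGGCGG was present at 19 of the 43 member starts (44.2%) and at 35.7% of all starts. GCGTGGGCG was present at 1 of 43 (2.3%) and at 0.6% of all. A match describes the letters in this window and is not evidence of binding.

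The values of the set also differed between the slides. The median deviation of the 59 member probes from their own mean was -0.12, 0.12, 0.17 and 0.10 in the 3M samples and 0.03, 0.01, -0.13 and -0.12 in the 29M samples. The 3 negative values of size 0.12 or 0.13 were the 3 arrays of slide 1. Replicate 1 of 3M gave the lowest 3M value for 38 of the 59 probes (64.4%), where it did so for 29.8% of all probes. At 29M the lowest value came from a slide 1 array for 47 of 59 probes (79.7%), against 54.2% of all. Averaged over 8 genes, excitatory neuron markers had a mean deviation of -0.17 on each slide 1 array. On the other 5 it was 0.02 to 0.19. The single genes did not all follow this mean. Neurod2 read 15.02, 14.66 and 15.14 on slide 1 and 15.33 to 15.76 on the other arrays. Wfs1 read 15.45, 15.58 and 15.28 on slide 1 and 14.73 to 15.44 on the others. Interneuron markers leaned the other way, at 0.04 to 0.14 on slide 1 and -0.13 to 0.08 on the other 5. The list of neuron markers lay at -0.05 to -0.02 on slide 1 and at -0.04 to 0.17 on the other 5. Whether these cells, or the lower share of spots above background on slide 1, have a part in the member values was not tested.

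**Figure D4:**
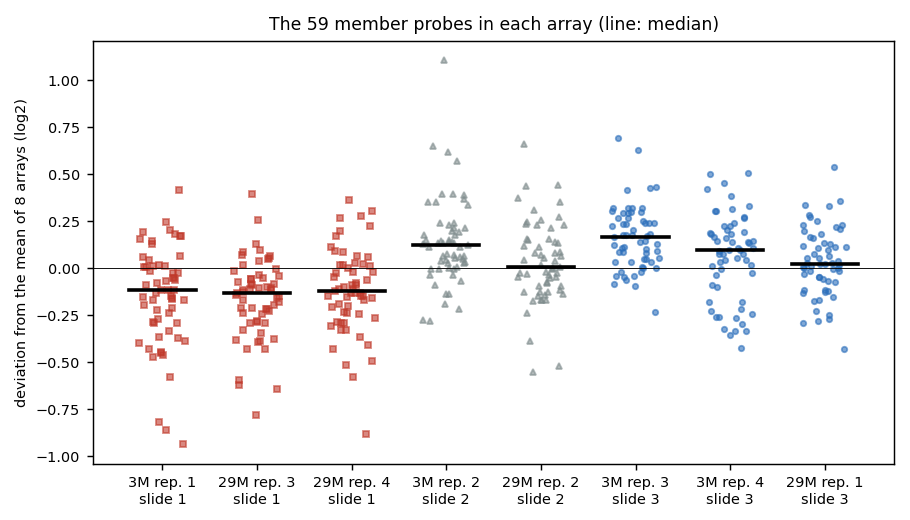
Deviation of each of the 59 member probes from its own mean over 8 arrays, in log2 units, by array and coloured by slide, with the median of each array. The medians of the 3 slide 1 arrays lie at -0.12 to -0.13, and those of the other 5 arrays lie from 0.01 to 0.17.

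Within slides the ages were closer together. The median change of the member probes was 0.02 on slide 1, -0.07 on slide 2 and -0.07 on slide 3, and with slide as a fixed block it was -0.05, against -0.11 without it. On all 3 slides 14 probes of 13 genes were lower at 29M (23.7%, against 22.1% of all probes) and 11 probes of 7 genes were higher (18.6%, against 22.5%). The called Nrxn2 probe kept its change of -0.79 with slide as a block (limma, adjusted p = 0.0813).

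**Figure D5:**
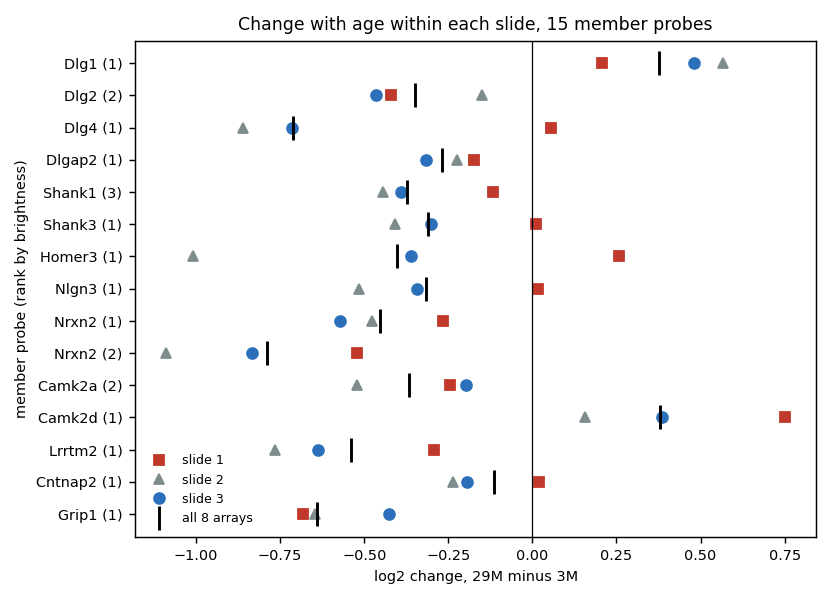
Log2 change (29M minus 3M) of 15 member probes within each of the 3 slides, with the change over all arrays. Both Nrxn2 probes are negative and Dlg1 is positive on every slide, while Dlg4 is at 0.06 on slide 1 and at -0.86 and -0.71 on slides 2 and 3.

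Genes of the same pathways outside the set were examined through 5 lists with 84 genes, of which 82 had a probe. Of their 129 probes 1 was called, or 0.775% against 2.06% of all probes. It belonged to Tenm1, a teneurin that spans the synapse to bind latrophilins, with values of 11.18, 11.51, 11.36 and 11.23 at 3M and 10.89, 10.93, 10.53 and 10.92 at 29M. All 29M samples lay below all 3M samples (change -0.50, SE 0.12, limma adjusted p = 0.0751), and the change was at the threshold. With slide as a fixed or random block 0 related probes were called, as was so without 3M replicate 2, 3 or 4 or without 29M replicate 2 or 3. At an unadjusted p below 0.05 there were 24 probes lower and 4 higher, where 8.68 and 8.24% of all probes were. The groups did not overlap for 22 of the 129 probes (17.1%, against 11.1% of all and 12.7% of those above background). The median change was -0.04, against 0.00 over all tested probes.

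By list, the 43 further adhesion genes had 12 probes lower and 2 higher at that p, of 67. Clstn3, a calsyntenin, and Slitrk4, an adhesion protein that binds presynaptic phosphatases, were chosen after their values were seen and came near the threshold, at -0.42 (limma, adjusted p = 0.0320) and -0.49 (limma, adjusted p = 0.0505). Among 20 further genes of the postsynaptic density 7 of 32 probes were lower and 1 was higher. The 2 with the smallest p were Lin7a at -0.32 (limma, adjusted p = 0.0733) and Lin7c at 0.39 (limma, adjusted p = 0.0807), adaptors of the same family with opposite signs. In the list for the inhibitory postsynapse, Nptn, an adhesion protein of the immunoglobulin family, had its lowest p at a change of 0.17 (limma, adjusted p = 0.328). Among calmodulin kinase partners, Camk1g was at 0.21 (limma, adjusted p = 0.209) and Camkk2 at -0.24 (limma, adjusted p = 0.246), with 3 of 18 probes lower and 1 higher at that p. The other Camkk2 probe was at -0.05. In the axonal contactin list, Cntn2 had a probe at -0.58 (limma, adjusted p = 0.168) and Nfasc was at -0.29 (limma, adjusted p = 0.419), with 1 of 6 probes lower. The other Cntn2 probe, the brighter one, had the opposite sign, at 0.17.

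Markers of the cell types in the tissue were measured on the same arrays. Neuronal markers gave a median change of -0.06 over 10 probes, excitatory neuron markers 0.05 over 8 and interneuron markers 0.04 over 8, with 0 probes called in each by limma and 2 excitatory probes, of Zbtb20 and Calb1, lower at an unadjusted p below 0.05 and 0 in the other lists. Their mean levels overlapped between the ages, at 15.77 to 15.99 for neurons at 3M and 15.79 to 15.81 at 29M. Microglial markers had a positive change for 9 of 9 probes (median 0.34, 0 called by limma, 6 at an unadjusted p below 0.05), with mean levels of 13.41 to 13.79 at 3M and 13.73 to 14.00 at 29M. Oligodendrocyte markers had a positive change for 10 of 11 probes (median 0.18, 0 called, 3 at that p). Of the astrocyte markers 3 of 11 probes were called higher, all of them probes of Gfap, the intermediate filament of reactive astrocytes. Another 3 astrocyte probes, all of the glutamate transporter Slc1a2, had negative changes of -0.22, -0.28 and -0.28 at an unadjusted p below 0.05, and 5 of the 11 probes were negative (median 0.08). Endothelial, choroid plexus and meningeal markers had medians of 0.17, 0.23 and 0.31 and ependymal and oligodendrocyte precursor markers had -0.07 and -0.13, with 0 called by limma and 2 endothelial probes at that p. None of the defining markers lay below background on all arrays. The part of these cell types in the member values was not tested.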

How the data were processed

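Hippocampal RNA of mice, with 4 samples at 3 months and 4 at 29 months, was analysed, grouped and numbered by the sample titles. The authors deposited 1 scanner table per array, with linear spot intensities that had not been scaled across arrays. Per the file headers these intensities came from Agilent Feature Extraction 10.7.3.1, and the software version, scanner and array design named in the study's methods differ from the headers, which were followed. The mean spot intensity was not among the columns used here, so the median was taken. A deposited table of the whole series, also of intensities, was not used as expression. Each of its 8 columns was identical to an array's mean local background (tolerance 0.001), in 7 cases that of another sample, with medians from 26.7 to 34.8. It therefore held background intensities and no expression values.

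Controls were removed, as were the outlier spots that the scanner software had marked, 127 to 190 on an array. Variance stabilizing normalization was fitted in R 4.3.3 by an own implementation (least trimmed squares, quantile 0.9, 7 iterations), spots of a probe were averaged, and limma 3.58.1 (lmFit and eBayes, 1 term for age, at least 3 usable arrays per group) was followed by Benjamini-Hochberg adjustment over 39408 probes, with thresholds of 0.1 and 0.5 as in the study's methods. Unequal change was tested by the same model on the difference between the brightest probe of a gene and each other probe. The steps were tested on simulated data. Probe accessions were matched to RefSeq without versions, which named 26055 of 39429 probes (66.1%).

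The members and lists were chosen with earlier results of these data known. Values in every array are given for probes that were called, for probes at an unadjusted p below 0.05 with an absolute change of at least 0.3, and for the brightest probe of the lowest-p member of each family. Of the related genes, those called were named, otherwise the 2 with the smallest p in each list. Of the related genes, 1 that this rule names is not reported here. Alternatives were the processed signal scaled by the 75th percentile, normexp (offset 50) with quantile normalization, the same normalization on the processed signal, outlier spots kept, probes above background alone, slide as a fixed or random block, a block by replicate number, array weights and leaving out each array. Leaving out slide 1 was added after seeing the data. It keeps only replicates 1 and 2 of 29M, below the 3 usable arrays per group required otherwise. With 4 arrays per group, their number limits the precision.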

Additional observations from a re-analysis of the deposited data

Results flagged for a closer look

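In a group of 4 samples, a value was singled out where its gap to the nearest other sample exceeded Dixon's 95% critical value as a share of the range of the group. This held for 10 of 140 groups, where chance alone gives about 7 (1 in 20).

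In 7 of the 10 cases the sample was replicate 1 of 3M, which was the lowest. Its value was 9.63 for the second Dlgap3 probe beside 10.28 to 10.34 in the other 3 samples (gap 0.926 of the range), 13.69 for Shank3 beside 14.16 to 14.25 (0.842), and 8.99 for the second Homer2 probe beside 10.03 to 10.08 (0.953). It was 13.80 for the brightest Nrxn3 probe beside 14.89 to 15.06 (0.866), 14.46 for the brighter Camk2a probe beside 14.61 to 14.62 (0.946), and 16.85 for the brighter Camk2b probe beside 17.45 to 17.49 (0.924). For the mean of the neurexin genes, the deviation was -0.44 beside 0.20 to 0.31 (0.850).

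The other 3 cases were replicate 3 of 3M for Homer1, at 13.45 beside 13.18 to 13.20 (0.943), and for Gphn, at 13.79 beside 13.56 to 13.59 (0.864), and replicate 4 of 29M for Nlgn3, at 10.61 beside 10.78 to 10.80 (0.871).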

How the results depend on the processing

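The called Nrxn2 probe stayed lower and called in 17 of 18 alternatives, with changes from -0.93 to -0.69, and the exception was the block by replicate number (adjusted p = 0.110). Deviations from the age mean in same-numbered samples correlated at -0.24, 0.21, -0.23 and 0.07. Only replicate 2 shared a slide between the ages, so these values cannot settle whether the numbers pair the samples. With that replicate block 0 member probes and 0 related probes were called. Of the 59 member probes 9 changed sign under at least 1 scaling (of Shank2, Shank3, Homer1, Homer2, Nlgn1, Nlgn2, Lrrtm1 and Baiap2), and none of the 15 probes plotted by array did. The number of member probes called lower was 1, and it became 2 with normexp and quantile normalization (with Grip1), 4 with array weights (with Homer3, Lrrtm2 and Grip1) and 3 without slide 1 (both Nrxn2 probes and Lrrtm2). The number called higher was 0, and 1 without slide 1 (Dlg1). When 1 array was left out, 1 to 5 probes were called lower, 5 without 3M replicate 1 (both Nrxn2 probes, Homer3, Dlg4 and Grip1) and 2 without 29M replicate 3 (with Lrrtm2), and 0 to 0 were called higher. Unequal probe pairs went from 0 to 1 with array weights and to 1 without slide 1, and from 0 to 1 over arrays left out, each time Lrrtm2. Related probes called went from 1 to 0 with slide as a fixed block, to 0 with slide as a random block, to 4 with array weights and to 3 without slide 1, and from 0 to 2 over arrays left out. Leaving out 3M replicate 2, 3 or 4 or 29M replicate 2 or 3 each gave 0. The median member change ran from -0.17 to -0.05 over arrays left out. Over all probes 491 were called higher and 321 lower, against 268 and 146 with the replicate block, 842 and 663 with array weights, 767 and 405 without slide 1, 824 and 641 without 3M replicate 1, and as few as 266 and 135 with 1 array left out (3M replicate 2). The causes were not tested.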
